A study of Rattus norvegicus with 6 samples.

Results

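The genes described here belong to the BCL2 family, which controls whether a cell opens its mitochondrial outer membrane and dies by apoptosis. Members were selected by symbol from a list of 10, and 9 of the 10 matched a row of the 21648 genes in the deposited table (Bcl2, Bcl2l1, Bcl2l2, Bak1, Bok, Bid, Bad, Bmf and Bcl2l11). The listed gene Mcl1 was not analysed here. The RNA came from primary ventricular myocytes, heart muscle cells isolated from wild-type rat pups at postnatal day 3. Cultures were given 10 µM 915, named in the series design as an activator of ERRs (estrogen-related receptors, nuclear receptors that drive genes of energy metabolism), or the same volume of its solvent DMSO, each for 72 h and in 3 libraries. All cultures had been depleted of fibroblasts by plating, seeded in serum and bromodeoxyuridine, and moved to medium with insulin, transferrin and selenium.

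In background terms, the family falls into 3 kinds of protein. Survival members such as BCL2, BCL-xL and BCL-w bind and restrain the others. The pore-forming members BAK, BAX and BOK perforate the outer membrane and release cytochrome c, which starts the caspase cascade. BH3-only members such as BIM, BID, BAD and BMF sense damage, growth factor withdrawal or detachment and either neutralise survival members or switch the pore-forming ones on. In heart muscle, which hardly renews itself, this balance is known to set how many myocytes are lost after ischaemia or toxic injury.

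The gene table held 30639244 to 38078137 counts per 915 library and 36799845 to 40010826 per DMSO library, and 3 counts, taken as the upper limit where a count is 0, equalled 0.0738 to 0.0917 CPM with 915 and 0.0698 to 0.0759 CPM with DMSO (CPM, the authors' counts scaled to library total). These limits cover counting error only. The library totals behind the CPM values, worked back from the deposited counts and CPM, were larger than the sums of the gene table. They were 32709227 to 40652711 with 915 and 39513590 to 42975767 with DMSO. The labels call the libraries biological replicates without saying whether they came from separate isolations, so the p-values refer to the variation among these libraries, some of which may be technical. Markers of the cell types a heart culture can hold differed between the groups to unlike degrees. For comparison, 24.3% of all genes tested were called higher with 915 and 25.5% lower (edgeR adjusted p under 0.05). The sums below weigh abundant genes most, such as Lyz2 (60.1 CPM with 915, 128 CPM with DMSO) and Col1a1 (6290 and 12000 CPM). Of 12 measured cardiomyocyte markers 10 were higher and 1 lower with 915, and their summed level was 27400 to 28100 CPM with 915 and 19400 to 20400 CPM with DMSO. Of 11 fibroblast markers 8 were lower and 2 higher, summing to 15000 to 15700 CPM with 915 and 27700 to 29400 CPM with DMSO. Smooth muscle markers (5 of 6 lower, 0 higher) summed to 738 to 790 CPM with 915 and 1770 to 1910 CPM with DMSO, and macrophage markers (4 of 10 lower, 0 higher) to 119 to 144 CPM with 915 and 223 to 241 CPM with DMSO. Endothelial markers (4 of 9 lower, 1 higher) summed to 239 to 256 CPM with 915 and 279 to 301 CPM with DMSO. All 6 measured markers of dividing cells were lower, at 64.8 to 73.6 CPM with 915 and 245 to 284 CPM with DMSO. No measured marker of these lists was at 0 in all libraries. The part of these other cells in the results below was not tested, and in bulk RNA fewer cells of a type and less RNA per cell cannot be told apart.

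With 915, the survival genes Bcl2l1 and Bcl2l2 were 1.31-fold and 1.23-fold higher, while the survival gene Bcl2 was 1.28-fold lower and the BH3-only gene Bad 1.19-fold lower. The pore-forming genes Bak1 and Bok and the BH3-only genes Bid, Bmf and Bcl2l11 did not pass the test. In all, 4 of the 9 genes passed an adjusted p of 0.05 (edgeR's quasi-likelihood test), against 49.8% of the 14253 genes tested. The 2 higher members stand beside 24.3% of all genes called higher, and the 2 lower members beside 25.5% called lower. An unadjusted p under 0.05 was reached by 4 members and by 55.7% of all genes. The 915 and DMSO libraries did not overlap for 4 members, and did not overlap for 56.7% of all genes. All 9 members passed the filter on low counts. Their median log2 fold change was 0.08 and the median size of their log2 fold changes 0.11, against −0.01 and 0.27 over all genes tested. None of the 9 changed by as much as 1.5-fold, whereas 5.33% of all genes were called and at least 1.5-fold higher and 12.8% called and at least 1.5-fold lower.

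**Figure D1:**
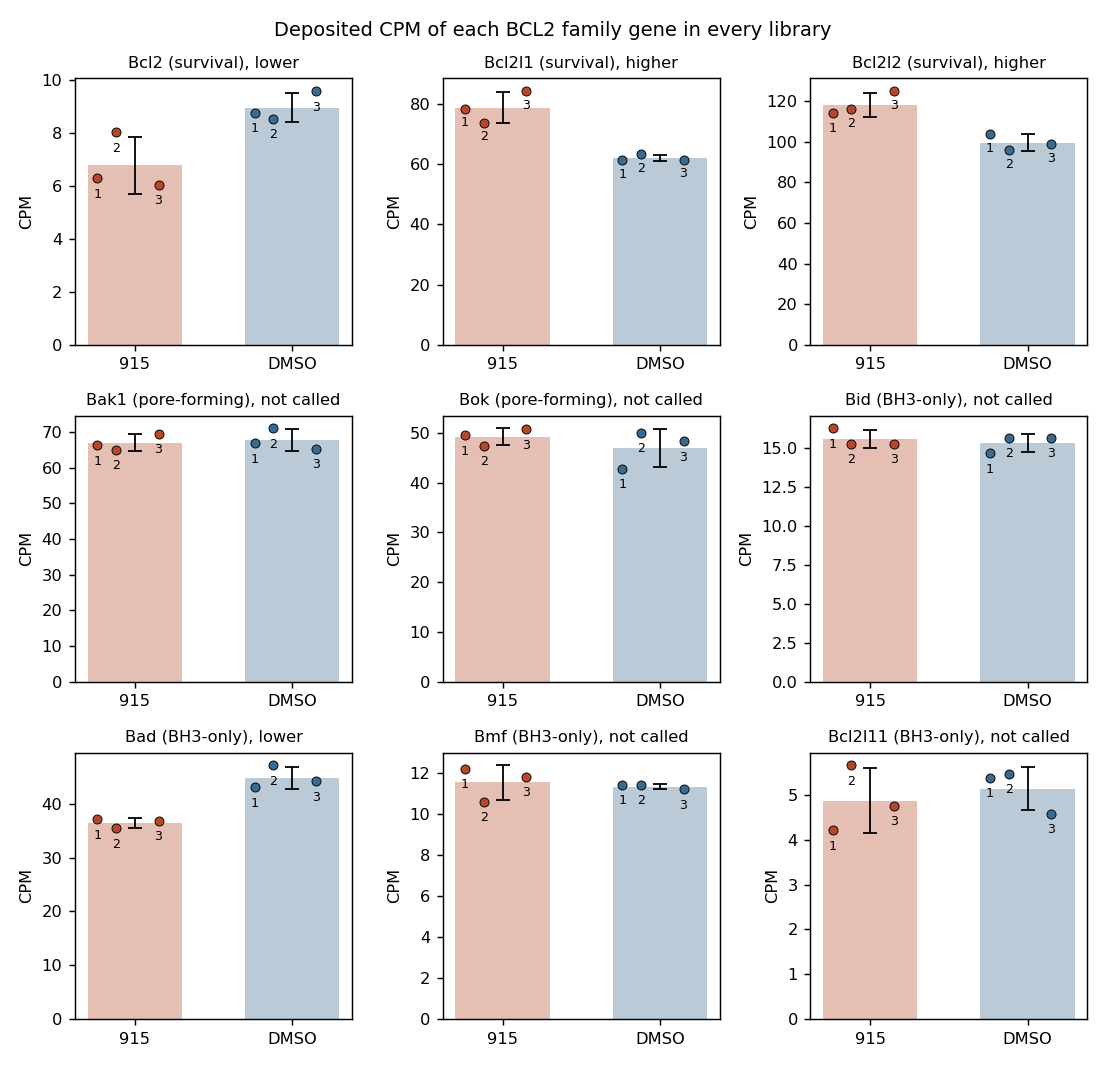
Level of each BCL2 family gene in CPM, with 3 libraries given 915 on the left and 3 given DMSO on the right of each panel (bars are means, lines the SD, numbered points the libraries; every axis starts at 0 and has its own scale). The 915 and DMSO points are apart for Bcl2, Bcl2l1, Bcl2l2 and Bad and overlap for the other members.

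Bcl2l1 (ENSRNOG00000007946) encodes BCL-xL, a survival protein of the outer mitochondrial membrane that holds BAK and BH3-only proteins. It was counted at 78.5, 73.9 and 84.4 CPM in 915 libraries 1 to 3, against 61.4, 63.4 and 61.6 CPM in DMSO libraries 1 to 3. Every 915 library lay above every DMSO library, and the 915 libraries spread more widely. The log2 fold change was 0.39 ± 0.059 (SE, n = 3 each; edgeR adjusted p = 7.17e-05), the highest of the 9 genes, and 86.6% of all tested genes had a lower one. A pseudogene copy in the same table, Bcl2l1-ps1, held 4, 2 and 9 counts in 915 libraries 1 to 3 and 3, 6 and 7 in DMSO libraries 1 to 3, so few counts were assigned to that copy. Rps2-ps43, a pseudogene that overlaps Bcl2l1 in the RefSeq annotation, had no count row matched to it. The same holds for the long non-coding RNA genes that overlap Bcl2 (LOC120096229 and LOC134481474) and Bak1 (LOC120098811).

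Bcl2l2 (ENSRNOG00000015732) encodes BCL-w, a close relative of BCL-xL in function. Its levels were 114, 116 and 125 CPM in 915 libraries 1 to 3 and 104, 95.8 and 98.9 CPM in DMSO libraries 1 to 3. All 915 libraries were above all DMSO libraries, with the narrowest gap between 915 library 1 and DMSO library 1. The log2 fold change was 0.30 ± 0.0532 (SE, n = 3 each; edgeR adjusted p = 3.26e-04).

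Bcl2 (ENSRNOG00000002791), the founding survival member, moved the other way. It was counted at 6.28, 8.01 and 6.03 CPM in 915 libraries 1 to 3, against 8.75, 8.52 and 9.57 CPM in DMSO libraries 1 to 3. The groups did not overlap, but 915 library 2 lay much closer to the DMSO libraries than to the other 915 libraries. The log2 fold change was −0.36 ± 0.123 (SE, n = 3 each; edgeR adjusted p = 0.0263), with a 95% interval of −0.62 to −0.09. The decrease no longer passed without 915 library 1 (−0.31, edgeR adjusted p = 0.1), without 915 library 3 (−0.28, edgeR adjusted p = 0.106) or without DMSO library 3 (−0.31, edgeR adjusted p = 0.0956). Within the 915 group the spread of Bcl2 was 15.9% of its mean, where counting error alone gives 6.34%, while in the DMSO group the spread was 6.13% against 5.2%.

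The bases before the annotated starts of Bcl2l1 and Bcl2 are shown because these related survival genes moved in opposite directions. The sequences are RefSeq's, on build GRCr8, a later assembly than the one the counts were made on, and cover the 250 bases before the start, written 5′ to 3′ on the gene's strand. Capitals mark TGATGNAA on either strand, the core of the composite element bound by C/EBP and ATF proteins.
Bcl2l1 (chr3:161764776-161765025, minus strand): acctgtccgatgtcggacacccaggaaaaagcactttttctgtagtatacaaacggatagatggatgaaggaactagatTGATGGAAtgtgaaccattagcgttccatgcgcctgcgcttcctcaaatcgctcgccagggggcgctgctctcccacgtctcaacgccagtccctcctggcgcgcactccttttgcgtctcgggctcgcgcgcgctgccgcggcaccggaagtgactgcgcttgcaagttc
Bcl2 (chr13:23366901-23367150, minus strand): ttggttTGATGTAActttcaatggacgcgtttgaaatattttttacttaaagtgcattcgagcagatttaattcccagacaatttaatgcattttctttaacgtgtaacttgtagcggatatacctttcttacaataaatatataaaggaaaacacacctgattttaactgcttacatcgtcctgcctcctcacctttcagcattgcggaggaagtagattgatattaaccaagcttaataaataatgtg

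The RefSeq table held 11 such windows for 8 of the 9 members, 4 of them for Bcl2l1, and 5 motifs were searched on both strands. These motifs were chosen with the direction of the members known. The ERR element TNAAGGTCA was found in 0 of the 11 windows and in 1.04% of all 33469 windows of the same length, and its half-site AAGGTCA, which lies within it, in 0 of 11 and in 3.99% of all. TGATGNAA was present in 4 windows, the Bcl2 window and 3 of the 4 Bcl2l1 windows, and in 3.4% of all windows. Of those Bcl2l1 windows, 2 overlap in the genome and share 1 match. The STAT element TTCNNNGAA was found in 3 windows, of Bad and Bcl2l1, and in 7.67% of all. Its Bcl2l1 windows are the 2 that overlap, and they share the same matches. The FOXO element GTAAACA was found in 2 windows, of Bad and Bcl2l11, and in 3.21% of all. A match describes letters only, and the absence of a match says only that these letters are not in these windows.

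**Figure D2:**
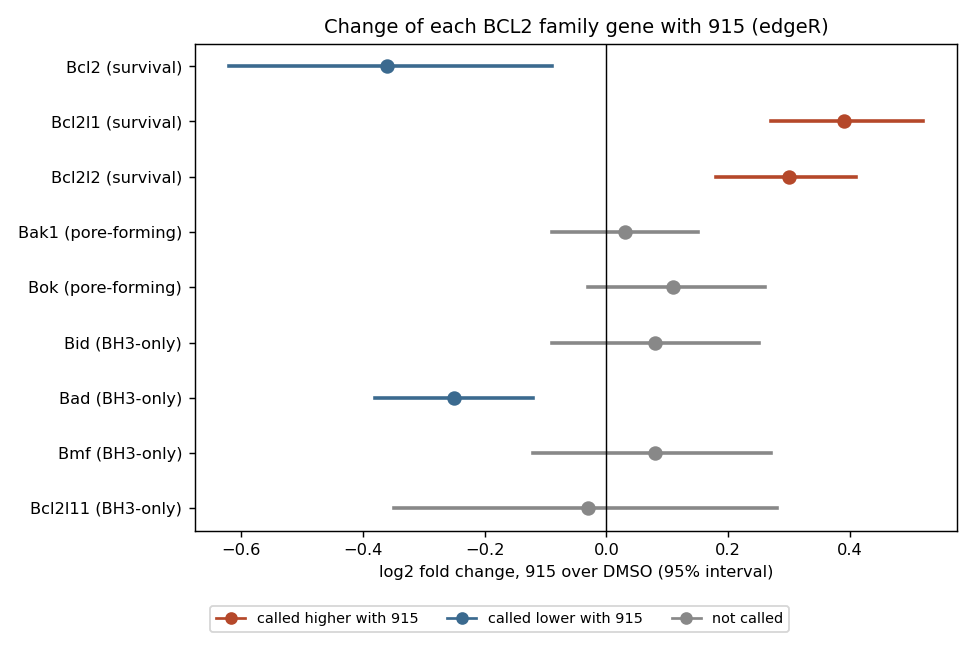
Log2 fold change of each BCL2 family gene, 915 over DMSO, with its 95% interval from edgeR (n = 3 libraries each). Bcl2l1 and Bcl2l2 lie above 0, Bcl2 and Bad below 0, and the intervals of the other 5 genes cross 0.

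The pore-forming genes did not pass the test. Bak1 (ENSRNOG00000000485) encodes BAK, which sits in the outer mitochondrial membrane and forms pores once released from BCL-xL. Its levels were 66.4, 65.1 and 69.6 CPM in 915 libraries 1 to 3 and 66.9, 71.1 and 65.4 CPM in DMSO libraries 1 to 3, and the groups overlapped throughout. The log2 fold change of 0.03 ± 0.0565 (SE, n = 3 each; edgeR adjusted p = 0.671) had a 95% interval from 0.94-fold to 1.11-fold, and it was −0.03 when libraries were scaled by their totals alone. Bok (ENSRNOG00000018214), a pore-forming member that acts largely at the endoplasmic reticulum, was at 49.5, 47.3 and 50.7 CPM in 915 libraries 1 to 3 and 42.7, 50 and 48.3 CPM in DMSO libraries 1 to 3. DMSO library 1 was the low one, and the others overlapped. Its interval ran from 0.977-fold to 1.2-fold (edgeR adjusted p = 0.184), and without DMSO library 2 it passed narrowly, at a log2 fold change of 0.17 and an edgeR adjusted p that rounds to 0.05. Bax, the third pore-forming gene and no member of the list, was at 103, 99.1 and 114 CPM in 915 libraries 1 to 3 and 103, 108 and 102 CPM in DMSO libraries 1 to 3. It did not pass either (log2 fold change 0.06, edgeR adjusted p = 0.402; 95% interval 0.956-fold to 1.14-fold).

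Among the 4 BH3-only genes of the list, Bad alone passed. Bad (ENSRNOG00000021147) encodes a protein that binds BCL-xL and BCL2 when growth factor kinases leave it unphosphorylated. It was counted at 37.2, 35.5 and 36.9 CPM in 915 libraries 1 to 3, against 43.1, 47.2 and 44.3 CPM in DMSO libraries 1 to 3. All 915 libraries were below all DMSO libraries. The log2 fold change was −0.25 ± 0.0615 (SE, n = 3 each; edgeR adjusted p = 0.004), and leaving out any library kept it between −0.28 and −0.20 with an edgeR adjusted p of at most 0.0172.

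Bid (ENSRNOG00000012439), whose product is cut by caspase 8 to link death receptors to mitochondria, was at 16.3, 15.3 and 15.3 CPM in 915 libraries 1 to 3 and 14.7, 15.7 and 15.7 CPM in DMSO libraries 1 to 3 (edgeR adjusted p = 0.426). Bmf (ENSRNOG00000007529), a sensor of detachment and cytoskeletal damage, was at 12.2, 10.6 and 11.8 CPM in 915 libraries 1 to 3 and 11.4, 11.4 and 11.2 CPM in DMSO libraries 1 to 3 (edgeR adjusted p = 0.496). The groups overlapped for both genes. Bcl2l11 (ENSRNOG00000016551), which encodes BIM, a strong activator of BAX and BAK, was at 4.21, 5.66 and 4.75 CPM in 915 libraries 1 to 3 and 5.38, 5.47 and 4.58 CPM in DMSO libraries 1 to 3. Its groups overlapped, and its log2 fold change of −0.03 (edgeR adjusted p = 0.865) was 0.06 without 915 library 1 and 0.02 without DMSO library 2. The 95% intervals were 0.94-fold to 1.19-fold for Bid, 0.923-fold to 1.21-fold for Bmf and 0.787-fold to 1.21-fold for Bcl2l11, and changes within these bounds are not excluded. Bcl2l11 overlaps the gene Acoxl in the RefSeq annotation, and Acoxl held 4 to 13 counts in the 915 libraries and 10 to 14 in the DMSO libraries, against 161 to 193 and 181 to 231 counts for Bcl2l11.

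The members also differed in how evenly the libraries of a group matched. In the 915 group Bcl2 and Bcl2l11, the least counted members, were both highest in library 2, while Bcl2l1, Bak1, Bok, Bad and Bmf were lowest there. Bcl2l11 spread by 15% of its mean in the 915 group and 9.47% in the DMSO group, where counting error gives 7.46% and 6.85%. Bid spread by 3.6% in the 915 group and 3.59% in the DMSO group, within the 4.14% and 3.97% that counting error gives. Bok spread by 3.53% in the 915 group and 8.13% in the DMSO group, against counting errors of 2.34% and 2.27%.

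A ratio of a survival gene to a death gene was formed within each library from log2 CPM values, so that the scaling of the library cancels apart from the small prior count. Of 6 pairs listed, the 4 without Mcl1 were computed, and their size within a library is not a comparison of levels, since counts were not divided by transcript length. The log2 ratio of Bcl2l1 over Bad was 1.08, 1.06 and 1.19 in 915 libraries 1 to 3 and 0.51, 0.42 and 0.48 in DMSO libraries 1 to 3. These groups were well apart, with a 1.56-fold higher ratio with 915. Bcl2l1 lay higher and Bad lower in every 915 library, so this separation follows from the changes given above and is no further result. The log2 ratio of Bcl2l1 over Bak1 was 0.24, 0.18 and 0.28 in 915 libraries 1 to 3 and −0.13, −0.17 and −0.09 in DMSO libraries 1 to 3, also without overlap. Bcl2 over Bcl2l11 averaged 0.47 ± 0.117 with 915 and 0.80 ± 0.226 with DMSO, and Bcl2 over Bmf −0.77 ± 0.317 with 915 and −0.34 ± 0.101 with DMSO (log2 ratio, SD, n = 3 each). Exact two-sided permutation tests gave p = 0.1 for the first 3 of these pairs, the smallest that 3 against 3 libraries allow, and p = 0.2 for Bcl2 over Bmf. Adjusted over the 4 pairs with Benjamini-Hochberg, the exact permutation p-values were 0.133 and 0.2. The pairs share genes, so they are not independent of each other. Every pair combines changes of single genes given above, so none of the 4 is a further result.

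**Figure D3:**
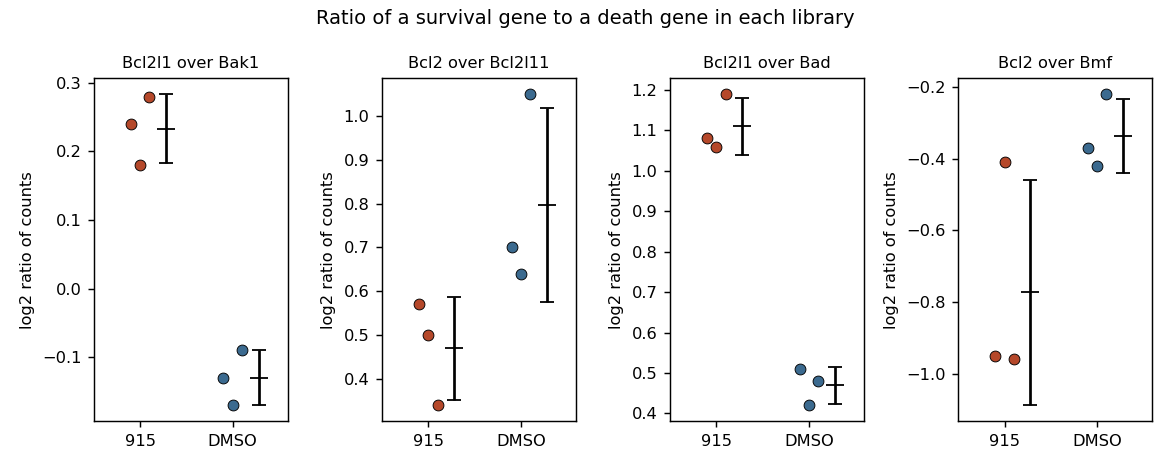
Log2 ratio of a survival gene to a death gene in each library, from log2 CPM values (points, 915 left and DMSO right; lines are mean ± SD, n = 3 each; each panel has its own axis). The 915 libraries lie above the DMSO libraries for Bcl2l1 over Bak1 and Bcl2l1 over Bad, below them for Bcl2 over Bcl2l11, and overlap them for Bcl2 over Bmf.

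Of 13 other genes of the BCL2 family listed, 10 were tested, and 3 were higher and 1 lower with 915 (median log2 fold change 0.18), where 49.8% of all genes were called. Bbc3 and Hrk were not analysed here. Bnip3, a hypoxia-responsive gene of mitophagy and cell death, was at 75.1, 75.1 and 82.2 CPM in 915 libraries 1 to 3 and 50.7, 47.9 and 49.8 CPM in DMSO libraries 1 to 3. It was 1.62-fold higher (log2 fold change 0.70 ± 0.0569, SE, n = 3 each; edgeR adjusted p = 1.93e-07). Pmaip1, which encodes NOXA, a BH3-only partner of MCL1, was at 4.45, 4.22 and 3.81 CPM in 915 libraries 1 to 3 and 9.38, 5.54 and 9.29 CPM in DMSO libraries 1 to 3. The groups did not overlap, with DMSO library 2 the closest to the 915 libraries, and Pmaip1 was 1.87-fold lower (log2 fold change −0.91, edgeR adjusted p = 7.5e-04). Bcl2l13 and the mitophagy receptor gene Bnip3l were higher by 0.23 and 0.13 on the log2 scale (edgeR adjusted p = 0.0346 and 0.0382). These small calls were fragile: the higher genes of this list numbered 1 without 915 library 1, DMSO library 1 or DMSO library 3, with library totals alone, with upper-quartile scaling or with the replicate number as a block. The lower genes numbered 2 without 915 library 1 and with library totals alone, since Bcl2l12 (−0.18, edgeR adjusted p = 0.12) then passed. Bik, Bcl2a1, Bcl2l14 and Bcl2l15 had log2 fold changes of 0.33, −0.23, 0.28 and 0.60 and did not pass, at edgeR adjusted p-values of 0.155, 0.119, 0.598 and 0.339. Bcl2l10 held 4 counts (0.105 CPM) in 915 library 1 and 0 in the other libraries, where the limits given above apply, and was not tested.

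Downstream of the mitochondria, genes of the caspase cascade went both ways: 3 of 12 rose, 3 fell, and the list's median was 0.09 on the log2 scale. These counts are near the 24.3% and 25.5% of all genes called higher and lower. Apaf1, the scaffold that assembles with cytochrome c to activate caspase 9, was at 22.3, 22.5 and 20.2 CPM in 915 libraries 1 to 3 and 35.6, 29.7 and 33.3 CPM in DMSO libraries 1 to 3, 1.47-fold lower without overlap (edgeR adjusted p = 3.58e-05). Casp2, an initiator caspase gene, was 1.22-fold lower (26.8 ± 1.1 CPM with 915 and 33.9 ± 0.904 CPM with DMSO; edgeR adjusted p = 0.00166). Aifm1, which encodes a mitochondrial flavoprotein needed for the respiratory chain that can also act in caspase-independent death, was 1.22-fold higher (78.1 ± 2.68 CPM with 915 and 66.1 ± 0.942 CPM with DMSO; edgeR adjusted p = 3.8e-04). The higher genes of this list numbered 5 without DMSO library 2. They numbered 2 without 915 library 1 or 3 or DMSO library 1 or 3. The same count of 2 came with DESeq2, library totals alone, upper-quartile scaling or the replicate block. The lower genes numbered 2 without DMSO library 3.

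Of 5 caspase inhibitor genes 2 were higher and 0 lower (median log2 fold change 0.15), where 24.3% of all genes were higher and 25.5% lower, and both lay above all DMSO libraries in every 915 library. Birc5, another Birc gene, was listed with the markers of dividing cells and is not among these 5. Named after its values were seen, it was lower with 915 (log2 fold change −1.53, edgeR adjusted p = 5.67e-09). Birc3, an NF-kB target that encodes the inhibitor cIAP2, was at 12.4, 12.8 and 15.9 CPM in 915 libraries 1 to 3 and 4.72, 4.94 and 5.16 CPM in DMSO libraries 1 to 3. Its log2 fold change of 1.52 ± 0.119 (SE, n = 3 each; edgeR adjusted p = 1.21e-07) was the highest among the cell death genes listed here. Nol3 encodes ARC, an inhibitor of apoptosis abundant in heart and skeletal muscle. It was at 40.4, 40.4 and 45 CPM in 915 libraries 1 to 3 and 24, 26.3 and 25.5 CPM in DMSO libraries 1 to 3, which is 0.78 on the log2 scale (edgeR adjusted p = 4.63e-07). Xiap, named after its values were seen, had a log2 fold change of −0.21 and did not pass (edgeR adjusted p = 0.056), but it passed without 915 library 2 (−0.28) or DMSO library 2 (−0.27), with an edgeR adjusted p of 0.019 and 0.015. It also passed with library totals alone, upper-quartile scaling or no filter on low counts (edgeR adjusted p = 0.02, 0.0351 and 0.0455), so that 1 gene of the list was then lower.

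Of 10 tested genes of the death receptor pathway 2 rose and 1 fell, and the median rounded to −0.00 on the log2 scale, where 49.8% of all genes were called. Tnfrsf1a, the main receptor gene for tumour necrosis factor, was 1.39-fold higher (198 ± 7.35 CPM with 915 and 148 ± 3.96 CPM with DMSO, SD, n = 3 each; edgeR adjusted p = 1.72e-06). Ripk1, a kinase that acts below this receptor, was at 30.3 ± 0.241 CPM with 915 and 36.6 ± 1.63 CPM with DMSO (log2 fold change −0.23, edgeR adjusted p = 0.00796). Mlkl, which encodes the executor of necroptosis, rose by 0.22 on the log2 scale (edgeR adjusted p = 0.0418), and this no longer passed without 915 library 2 or 3 or DMSO library 1 or 3, with library totals alone, with upper-quartile scaling or with the replicate block. Without 915 library 2 or 3 or DMSO library 3 the list held 1 higher and 2 lower genes, and without DMSO library 1 or with the replicate block it held 1 higher gene. With library totals alone it held 1 higher and 4 lower, with upper-quartile scaling 1 higher and 2 lower, and with no filter on low counts 2 lower.

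**Figure D4:**
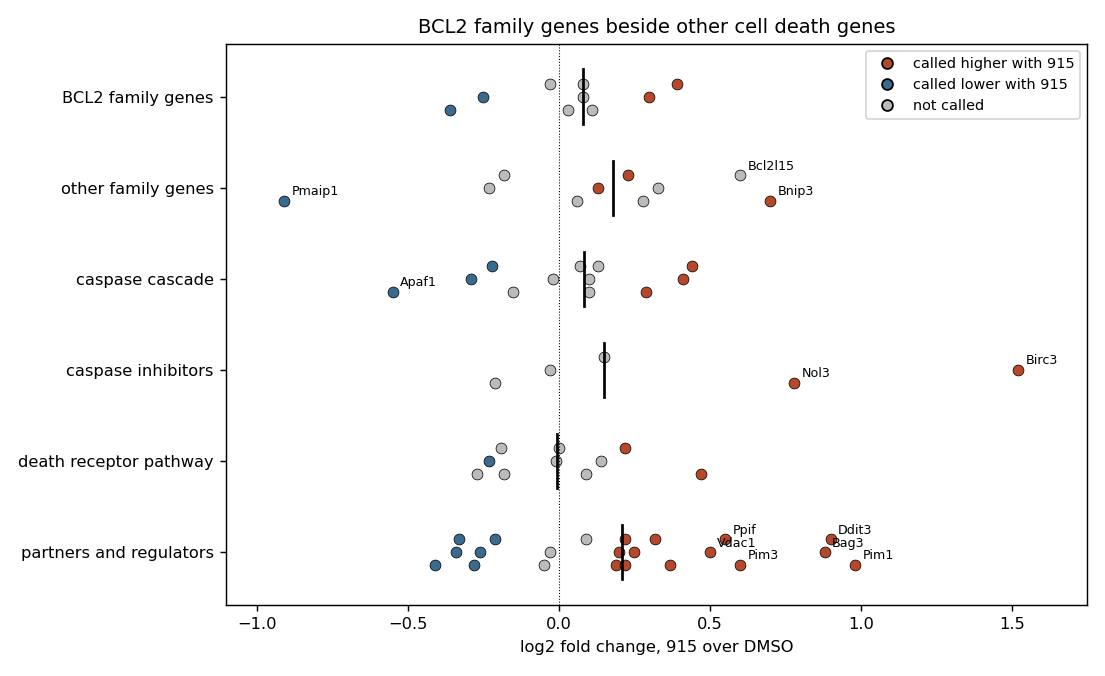
Log2 fold change, 915 over DMSO, of every tested gene in the BCL2 family list and 5 lists of related genes (points coloured by call, vertical bars are list medians, names given from a log2 fold change of 0.5 in size). The BCL2 family genes lie between −0.36 and 0.39, inside the range of the partners and regulators and of the other family genes.

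A list of genes whose products bind or regulate family members had the most calls, 13 of 22 being higher and 6 lower (median 0.21 on the log2 scale), against 24.3% and 25.5% of all genes. The list was chosen with earlier results of these data known, so these counts describe the listed genes only. The co-chaperone gene Bag3, known to stabilise survival members, was at 334 ± 13.6 CPM with 915 and 188 ± 3.16 CPM with DMSO (log2 fold change 0.88, edgeR adjusted p = 3e-09). Ddit3, which encodes the stress factor CHOP, was at 144 ± 8.08 CPM with 915 and 79.8 ± 1.32 CPM with DMSO (0.90, edgeR adjusted p = 7.32e-09). Vdac1, the voltage-dependent channel of the outer mitochondrial membrane, was at 495 ± 3.45 CPM with 915 and 363 ± 11.7 CPM with DMSO (0.50, edgeR adjusted p = 6.38e-07). The lower genes numbered 3 without 915 library 1 or DMSO library 3.

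The partners of single members, named after their values were seen, were divided. Of the kinases known to phosphorylate BAD, Pim1, Pim3 and Akt2 were higher, by 0.98, 0.60 and 0.32 on the log2 scale (edgeR adjusted p = 1.26e-05, 9.24e-06 and 6.63e-05), while Akt1 fell by 0.26 (edgeR adjusted p = 4.42e-04) and Pim2, at −0.03, did not pass (edgeR adjusted p = 0.873). Ywhaz, a 14-3-3 gene whose product holds phosphorylated BAD in the cytosol, fell by 0.34 on the log2 scale (296 ± 10.9 CPM with 915 and 387 ± 6.73 CPM with DMSO; edgeR adjusted p = 2.8e-05), while the 14-3-3 gene Ywhae, at −0.05, did not pass (edgeR adjusted p = 0.351). Of the dynein light chain genes, Dynll1, whose product tethers BIM, fell by 0.41 and Dynll2, whose product tethers BMF, rose by 0.20 on the log2 scale (edgeR adjusted p = 1.34e-04 and 0.00698). Foxo3, a transcription factor that drives Bcl2l11, rose by 0.19 on the log2 scale (edgeR adjusted p = 0.0174), and its relative Foxo1 fell by 0.21 (edgeR adjusted p = 0.0276). The Foxo3 call was lost without 915 library 3 or DMSO library 3, with library totals alone and with the replicate block. The Foxo1 call was lost without 915 library 1 or 2 or DMSO library 2 or 3 and with the replicate block.

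The genes most like Bcl2l1 across the 6 libraries, by Pearson correlation of log2 CPM among 9704 genes with a mean of at least 5 CPM, were Atp6v1g1, Sugp2 and Stard3, with r of 0.999, 0.999 and 0.998. Their own log2 fold changes were 0.33, 0.27 and 0.31, and 1097 genes reached an r above 0.95 with Bcl2l1. Those most like Bcl2 included Fam212b and Lpp, with r of 0.988 and 0.987 and log2 fold changes of −0.26 and −0.51, and 93 genes reached an r above 0.95. These correlations describe 6 libraries in 2 groups, so genes that differ between the groups in the same direction are alike by that alone.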

How the data were processed

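RNA sequencing counts of 6 libraries were analysed, 3 with 915 and 3 with DMSO. STAR 2.5.1a, Subread featureCounts 1.4.6-p5 and build Rnor_6.0 are named per the submitters' processing notes. How strand and multi-mapped reads were handled is not stated there, which leaves counts of overlapping genes and close copies uncertain. From the 22641 rows of the deposited counts, 993 with an Ensembl identifier already listed, and equal counts, were dropped. The deposited CPM values are these counts divided by 1 total per library.

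Counts were filtered with filterByExpr (14253 genes), scaled by TMM and tested two-sided with edgeR 4.0.16 in R 4.3.3 (quasi-likelihood, group alone, Benjamini-Hochberg over all tested genes, threshold 0.05). A standard error is the size of the log2 fold change divided by the square root of F, and intervals are 95%. Log2 CPM values used a prior count of 2. The procedure was also run on counts simulated with the same spread for every gene. The data differ in this, so no result here rests on that run. Alternatives were DESeq2 1.42.0, limma 3.58.1 (voom), other scalings, no filter, a replicate block and leaving out each library. Between libraries of 1 group, chi-square over degrees of freedom was 5.49 to 11.7, so none was a duplicate.

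Members, lists and motifs were chosen with earlier results of these data known. The named genes are all members, all measured genes of the other family list, the 3 smallest p-values past the threshold in each other list, and the 3 genes most correlated with the called members of highest and lowest fold change. Other genes are said to be named after their values were seen. Some genes that the rule names or the lists hold are not reported here.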

Additional observations from a re-analysis of the deposited data

How the results depend on the processing

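Under 7 alternatives that changed the scaling, filter, test or block, 2 members were higher and 2 lower, as in the reported fit. Leaving out 1 library at a time gave 2 to 3 higher members, 1 to 2 lower members and 6071 to 7047 called genes. The lower count of 1 came without 915 library 1, without 915 library 3 or without DMSO library 3, where Bcl2 no longer passed. Bcl2l1, Bcl2l2 and Bad passed under all 13 alternatives, with log2 fold changes of 0.34 to 0.44, 0.24 to 0.33 and −0.30 to −0.20. Direction turned for Bak1 with library totals alone (−0.03), for Bcl2l11 without 915 library 1 (0.06) or DMSO library 2 (0.02), and for Bcl2l14 without 915 library 3 (−0.03). Leaving out single libraries took Bcl2l11 from −0.15 to 0.06 and Bcl2l14 from −0.03 to 0.50. None of these genes passed in any fit, and the cause of the turns was not tested.

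Replicates are numbered 1 to 3 in either group, and nothing ties equal numbers to 1 isolation. Deviations of same-numbered libraries correlated at −0.03, −0.11 and −0.09, so the numbers were not taken as pairs. With the replicate block 6193 genes were called, against 7096 without it, and Bcl2 passed at an edgeR adjusted p of 0.0483. Averaging differences within numbered pairs gives the same change as comparing group means, so the pair ratios could not change under the block. They stayed at 0.64 for Bcl2l1 over Bad and 0.36 for Bcl2l1 over Bak1 (exact permutation p = 0.25 within pairs for both). That p is the smallest that 3 numbered pairs allow, so this test could not pass 0.05 in any case. Bcl2 and Bcl2l11 were the least counted members, at 161 to 378 counts per library. Their spread in the 915 group, 15.9% and 15% of the mean, exceeded the 6.34% and 7.46% that counting error gives.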

Other observations

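The 3 pore-forming genes Bak1, Bok and Bax all missed the threshold in the reported fit, with 95% intervals that stayed between 0.94-fold and 1.2-fold. Among stress-responsive genes of cell death, Pmaip1 was at 4.16 ± 0.322 CPM with 915 and 8.07 ± 2.19 CPM with DMSO (SD, n = 3 each), while Ddit3 was 1.87-fold higher with 915. No test of a common cause was made.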
